A study of Mus musculus with 6 samples.

Results

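The miR-30 family was measured at 12 of the 2110 mature miRNA loci counted in extracellular vesicles from mouse muscle. Its members were chosen by their identifiers: the 5p strands of miR-30a, miR-30b, miR-30c, miR-30d and miR-30e, which stand at 6 loci because miR-30c-5p has 2 copies, and the locus on the opposite arm of each of the 6 hairpins, on the same chromosome and strand within 80 bases. The 12 loci carry 11 mature identifiers.

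The study sequenced small RNA of exosomes, the small membrane vesicles that cells release, and compared muscle from young mice with muscle from old mice. Each group had 3 libraries. Both groups are described by age alone. Their genotype, strain, exact age and sex, the muscle sampled and the isolation of the vesicles were not given in the sources used here. Nor was it stated whether the 3 libraries of a group came from separate animals, so that their spread may be partly or wholly technical and the p-values refer to that spread.

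A miRNA hairpin is cut into a short duplex, of which 1 strand, the guide, is usually kept in an Argonaute protein while the other strand is mostly lost. The guide finds target mRNAs chiefly through its seed, bases 2 to 8 from the 5′ end, so miRNAs with the same seed are counted as a family. In miR-30 the 5p strand is the usual guide, the family is abundant in heart and skeletal muscle, and work in heart has described miR-30 and miR-133 as repressors of connective tissue growth factor, an inducer of extracellular matrix.

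Mature sequences from RefSeq (GRCm38.p6) were found for 8 of the 12 loci, or 7 of the 11 names. The guide strands are shown first because they share their seed and differ in their 3′ parts. Capitals mark the seed.
miR-30a-5p: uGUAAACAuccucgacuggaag
miR-30e-5p: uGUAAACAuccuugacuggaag
miR-30c-5p: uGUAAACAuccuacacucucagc

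These 3 guides were identical over their first 12 bases. Counted from the 5′ end, miR-30e-5p differed from miR-30a-5p at 1 position (C13U), and miR-30c-5p differed from miR-30a-5p at 5 positions (C13A, G14C, G18C, G19U and A20C) and was 23 bases long against 22. How reads with a mismatch were placed is not stated, so the split between miR-30a-5p and miR-30e-5p, 1 base apart, is less certain than that between either of them and miR-30c-5p. Apart from the family, miR-384-5p was the only mature miRNA of the RefSeq table with the seed of these guides, and it held 133 counts over all 6 libraries. miR-30b-5p and miR-30d-5p are the remaining guides. Their sequences were not among those found, so their likeness to the other guides was not compared. How surely their reads were told apart from those of miR-30a-5p, miR-30c-5p and miR-30e-5p is therefore not known.

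The opposite strands are shown because they fall into seed groups of their own.
miR-30a-3p: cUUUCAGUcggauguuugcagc
miR-30e-3p: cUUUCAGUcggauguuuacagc
miR-30c-1-3p: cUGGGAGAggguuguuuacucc
miR-30c-2-3p: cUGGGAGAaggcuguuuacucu

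miR-30e-3p differed from miR-30a-3p by G18A alone, and miR-30c-2-3p differed from miR-30c-1-3p by G9A, U12C and C22U. The opposite strands of the miR-30c hairpins, unlike their guide strands, could therefore be told apart by sequence. The seed of miR-30a-3p and miR-30e-3p was found in no other mature miRNA of the table, and that of the miR-30c opposite strands was shared with miR-6958-5p, which held 0 counts.

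The 6 hairpins lie in 3 pairs on the mouse genome (mm10). On chromosome 1, on the plus strand, miR-30a-5p (MIMAT0000128, chr1:23272274-23272295) lies in no annotated host gene and miR-30c-5p of Mir30c-2 (MIMAT0000514, chr1:23291714-23291736) lies in an exon of the lincRNA Gm27028, with 19361 bases between the pair. On chromosome 15, on the minus strand, miR-30b-5p (MIMAT0000130, chr15:68337469-68337490) lies in no host gene and miR-30d-5p (MIMAT0000515, chr15:68341257-68341278) lies in an exon of the lincRNA Gm20732, 3697 bases apart. On chromosome 4, on the minus strand, miR-30c-5p of Mir30c-1 (MIMAT0000514, second copy, chr4:120769584-120769606) and miR-30e-5p (MIMAT0000248, chr4:120772660-120772681) both lie in an intron of Nfyc, a gene for a subunit of the CCAAT-binding factor NF-Y, 2983 bases apart. Each pair thus joins different members, and miR-30c has a copy beside miR-30a and another beside miR-30e.

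The libraries held 904892 to 1706396 counts. miR-21a-5p alone took 49.5 to 51.9% of the counts in young libraries and 35.4, 49.0 and 52.9% in old replicates 1, 2 and 3. Old replicate 1 had the fewest counts and the lowest share of miR-21a-5p, and the values without it are given where leaving it out changed a call or a value most. Levels below are CPM, the count of a miRNA scaled to a common library total, on library sizes scaled by the trimmed mean of M values (TMM). They are relative to the other miRNAs counted, not amounts per vesicle, and a lower level cannot be told apart from fewer vesicles of the source that carries the miRNA.

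Together the 5 guides held 16941 of 8396138 counts, or 0.202%. The family took 0.194, 0.180 and 0.258% of all counts in young replicates 1, 2 and 3 and 0.283, 0.2002 and 0.1246% in old replicates 1, 2 and 3. The old values lay on both sides of the young ones. The mean share (± SD, n = 3 each) was 0.210% ± 0.0416 in young and 0.203% ± 0.0792 in old, a difference within the spread of the libraries (two-sided exact permutation test, p = 1). With miR-21a-5p taken out of the total, the shares were 0.400, 0.373 and 0.511% in young and 0.438, 0.392 and 0.264% in old, and they again overlapped (exact permutation p = 0.5).

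miR-30d-5p was the most abundant member. Its level was 1222, 1152 and 1568 CPM in young replicates 1, 2 and 3 and 1801, 1310 and 852 CPM in old replicates 1, 2 and 3. Old replicate 1 held the highest and old replicate 3 the lowest of the 6 values, on both sides of the young libraries. Means were 1314 ± 223 and 1321 ± 475 CPM (SD, n = 3 each), with a log2 fold change of old over young of 0.01 ± 0.22 (SE) and an adjusted p of 0.982 by edgeR's quasi-likelihood test.

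miR-30a-5p, the member from chromosome 1 with no host gene, stood at 227, 226 and 272 CPM in young and at 219, 303 and 190 CPM in old replicates 1, 2 and 3. The old libraries spread around the young ones, from the lowest to the highest value. Means were 242 ± 25.9 and 237 ± 59.2 CPM, and the log2 fold change was -0.03 ± 0.21 (adjusted p = 0.960, edgeR).

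miR-30c-5p, summed over both loci, was the member with the smallest unadjusted p in edgeR's test. It stood at 275, 240.3 and 357 CPM in young replicates 1, 2 and 3 and at 221, 168 and 115 CPM in old replicates 1, 2 and 3. Every old library lay below every young library, the nearest values being old replicate 1 and young replicate 2. The means were 291 ± 60.2 and 168 ± 52.9 CPM, 0.576-fold in old (log2 fold change -0.80 ± 0.24, unadjusted p = 0.00316). Adjusted over all 317 mature miRNAs tested, p was 0.0501, which did not pass the threshold of 0.05. By DESeq2 the same comparison gave a log2 fold change of -0.81 with an adjusted p of 0.0485, just inside it. Leaving out old replicate 1 gave -1.01 with an adjusted p of 8.1e-05 by edgeR, whereas leaving out any 1 of the other 5 libraries gave -0.90 to -0.58 with adjusted p-values from 0.0874 to 0.325. The call at 0.05 therefore changed with the tool and with 1 library, while the sign was the same in each of these fits.

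miR-30b-5p, the neighbour of miR-30d on chromosome 15, stood at 233, 211 and 248 CPM in young and at 280, 192 and 155 CPM in old replicates 1, 2 and 3. Old replicate 1 lay above and old replicates 2 and 3 below all the young libraries. Means were 231 ± 18.6 and 209 ± 64.1 CPM (log2 fold change -0.15 ± 0.22, adjusted p = 0.788, edgeR).

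miR-30e-5p, which shares the Nfyc intron with Mir30c-1, was the least abundant guide. It stood at 27.4, 24.8 and 47.0 CPM in young and at 35.9, 48.4 and 28.0 CPM in old replicates 1, 2 and 3. The groups overlapped throughout, at means of 33.1 ± 12.1 and 37.5 ± 10.3 CPM (log2 fold change 0.18 ± 0.33, adjusted p = 0.818, edgeR).

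**Figure D1:**
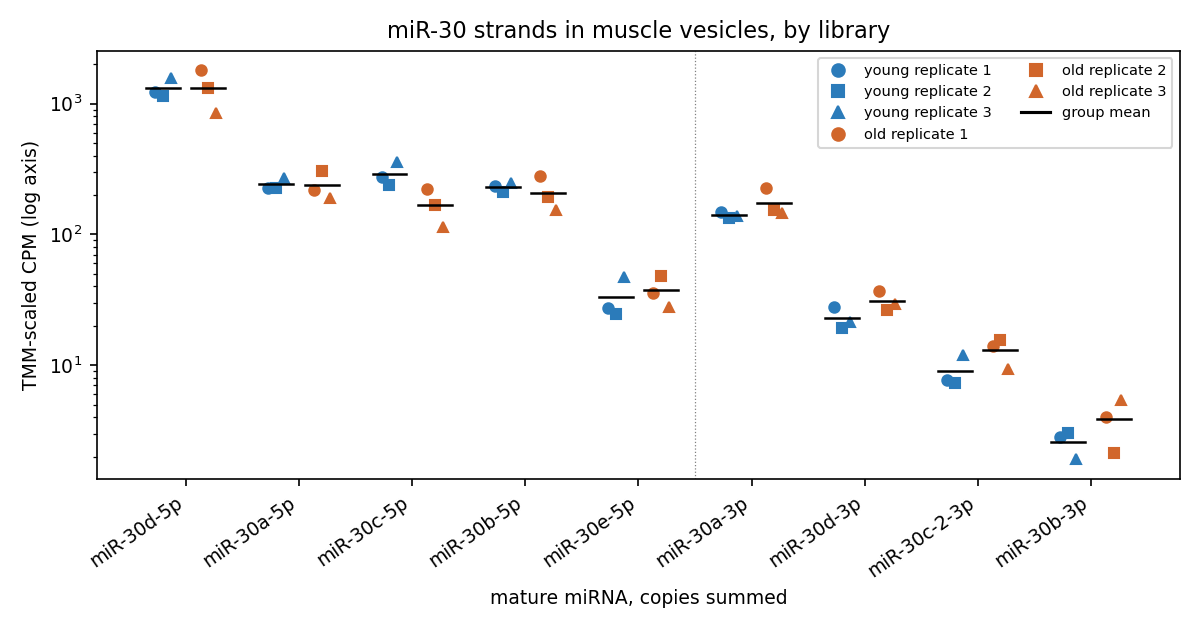
Levels of the miR-30 guide strands in each library (TMM-scaled CPM, log axis), with young and old libraries as separate points and the mean of each group as a bar. For miR-30c-5p the 3 old libraries (115 to 221 CPM) lie below the 3 young ones (240.3 to 357 CPM), and for the other guides the groups overlap.

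Of the 5 guides, then, 0 passed an adjusted p of 0.05 in edgeR's test, where 5.05% of the 317 mature miRNAs tested did, 1.58% being lower and 3.47% higher in old. By unadjusted p, miR-30c-5p alone of the guides was under 0.05. The median log2 fold change of the guides was -0.03, against 0.05 over all tested miRNAs. Non-overlapping groups were found for 1 of the 8 members tested, miR-30c-5p. That pattern occurred for 26.2% of all tested miRNAs, 12.6% being lower in old, so the count of members was no higher than in the table at large. By p-value, miR-30c-5p ranked 20 among the 317.

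**Figure D2:**
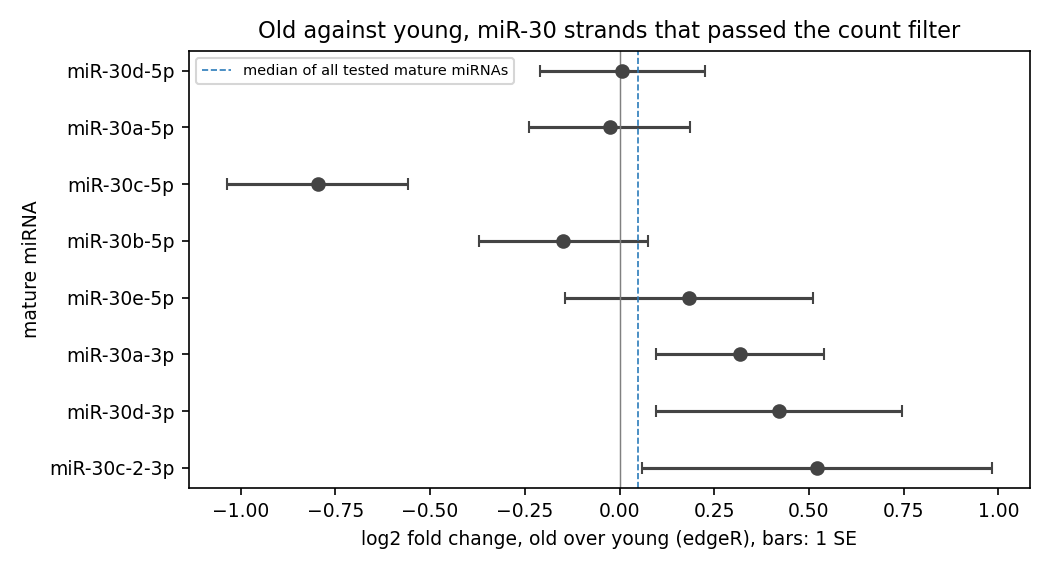
Log2 fold change of old over young for the tested miR-30 mature strands, with bars of 1 standard error derived from the statistic of edgeR's quasi-likelihood test. miR-30c-5p lies at -0.80, the other 4 guides lie between -0.15 and 0.18, and the 3 tested opposite strands lie between 0.32 and 0.52.

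The order of the levels over all 6 libraries was miR-30d-5p (mean 1318 CPM), miR-30a-5p (239.5), miR-30c-5p (229.4), miR-30b-5p (219.8) and miR-30e-5p (35.3). Neighbours in this order were compared within each library. miR-30d-5p exceeded miR-30a-5p by 5.42-fold (geometric mean, range 4.32 to 8.24) in 6 of 6 libraries, and miR-30b-5p exceeded miR-30e-5p by 6.35-fold (3.97 to 8.51) in 6 of 6. Each of these steps gave p = 0.03125 in a two-sided exact sign-flip permutation test, the smallest possible with 6 libraries, and 0.0625 after adjustment over the 4 neighbours, which did not pass 0.05.

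With the miR-30c copies summed, the 3 members in the middle did not differ beyond their spread. The ratio of miR-30a-5p to miR-30c-5p was 1.10 (range 0.760 to 1.81, adjusted exact permutation p = 0.75), and that of miR-30c-5p to miR-30b-5p was 0.999 (0.744 to 1.44, unadjusted exact permutation p = 0.9375). With the mean of the miR-30c loci in place of their sum, miR-30c-5p lay below both of them in all 6 libraries (log2 ratio of miR-30a-5p to miR-30c-5p 1.13, of miR-30c-5p to miR-30b-5p -1.002, adjusted exact permutation p = 0.0312 each). That mean only divides the summed counts of the mature miRNA by 2. These p-values follow from that choice and do not settle the order. Per base of mature length, as CPM divided by length, miR-30b-5p (9.99) and miR-30c-5p (9.98) changed places while the other ranks held. By age group, the middle order was as follows. In the young libraries miR-30c-5p exceeded both miR-30a-5p and miR-30b-5p in 3 of 3, and in the old libraries it lay below miR-30b-5p in 3 of 3 and below miR-30a-5p in old replicates 2 and 3.

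The design allows miR-30c to be set against its relatives inside each library, where no scaling between libraries enters. Relative to miR-30a-5p, miR-30c-5p stood at 1.21, 1.06 and 1.32 in young replicates 1, 2 and 3 and at 1.01, 0.554 and 0.607 in old replicates 1, 2 and 3. The groups did not overlap, though old replicate 1 came close to young replicate 2. The geometric mean went from 1.19 to 0.697, a difference of -0.77 on the log2 scale.

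Relative to miR-30d-5p, the most abundant member, the ratios were 0.225, 0.209 and 0.228 in young and 0.123, 0.128 and 0.135 in old. The groups did not overlap, and the standard deviation within each was 0.07 on the log2 scale. That is the SD of 3 libraries, and the counting error of the ratios was not computed. The geometric mean was 0.220 in young and 0.128 in old (log2 difference -0.78, or 0.583-fold).

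Relative to miR-30e-5p the ratios were 10.1, 9.68 and 7.61 in young and 6.14, 3.47 and 4.11 in old, with geometric means of 9.05 and 4.44 (log2 difference -1.03). Relative to miR-30b-5p they were 1.18, 1.14 and 1.44 in young and 0.789, 0.874 and 0.744 in old, with geometric means of 1.25 and 0.801 (log2 difference -0.64). Against each of its 4 relatives, miR-30c-5p was thus lower in every old library than in every young one, old replicate 1 included.

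For each of these 4 ratios the two-sided exact permutation test gave p = 0.1, the smallest that 3 against 3 libraries allow, and 0.25 after adjustment over all 10 pairs of guides. None could pass 0.05. The 4 ratios share the same miR-30c-5p counts and are not independent of each other. How often ratios between other miRNAs of the table separate the age groups was not computed. Among single miRNAs tested, 26.2% had groups without overlap, so such ratios are not particular to miR-30c-5p on this evidence. Among the other 6 pairs, none of which holds miR-30c-5p, the groups overlapped in 6 of 6, with log2 differences between -0.39 (miR-30b-5p to miR-30e-5p) and 0.13 (miR-30a-5p to miR-30b-5p) and exact permutation p-values from 0.2 to 1. When each library was left out in turn, the log2 difference stayed between -0.82 and -0.74 against miR-30d-5p, between -0.70 and -0.53 against miR-30b-5p, between -1.04 and -0.61 against miR-30a-5p and between -1.26 and -0.85 against miR-30e-5p.

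**Figure D3:**
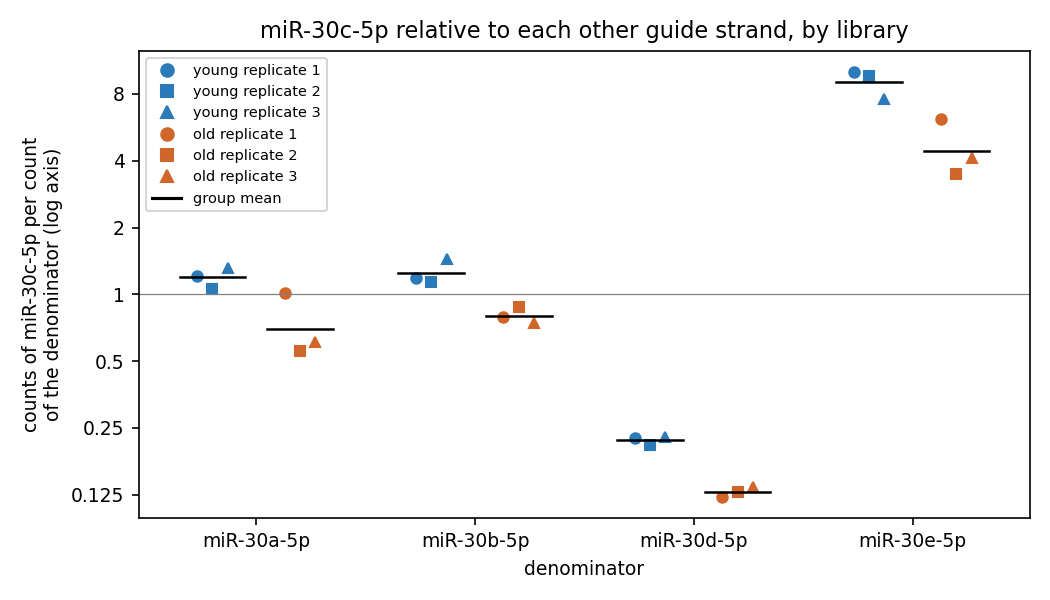
Ratio of miR-30c-5p counts to those of each other miR-30 guide in the same library (log axis), with points for libraries and bars for the geometric mean of each group. Against all 4 guides the 3 old libraries lie below the 3 young ones, with the tightest groups against miR-30d-5p (0.209 to 0.228 in young, 0.123 to 0.135 in old).

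The make-up of the family gives the same counts as shares. miR-30c-5p made up 13.9, 13.0 and 14.3% of the guide counts in young replicates and 8.63, 8.31 and 8.58% in old ones. The groups did not overlap, at 13.7% ± 0.703 and 8.51% ± 0.173 (difference -5.21 points). The old shares rest on 221, 236 and 148 miR-30c-5p counts in replicates 1, 2 and 3. Their counting error was not computed, and the SD of 3 libraries is a rough measure of spread. miR-30d-5p made up 61.6, 62.1 and 62.9% in young and 70.5, 64.8 and 63.6% in old, also without overlap, and the difference of 4.10 points became 2.01 points without old replicate 1. Both gave an exact permutation p of 0.1, the smallest possible, and 0.3 after adjustment over the 6 shares tested.

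The shares of the remaining guides overlapped between the groups. In young and old vesicles respectively, miR-30a-5p took 11.5% ± 0.655 and 12.6% ± 3.50, miR-30b-5p 11.03% ± 0.943 and 10.7% ± 1.04, and miR-30e-5p 1.53% ± 0.305 and 1.96% ± 0.506 (SD, n = 3 each, exact permutation p from 0.2 to 0.7).

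The copies of miR-30c-5p have the same mature sequence, so a read of the mature strand cannot be placed at Mir30c-1 or Mir30c-2. Mir30c-1 held 49.2, 49.9 and 50.4% of the miR-30c-5p counts in young and 50.2, 55.9 and 49.3% in old replicates 1, 2 and 3. The exact binomial 95% interval of each library included 50%, also in old replicate 2 (49.3 to 62.4%). The counts therefore describe the mature miRNA and not either locus.

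Tested locus by locus, the copies gave close values. At Mir30c-2 the level was 137, 119.7 and 179 CPM in young and 111, 74.5 and 58.2 CPM in old (log2 fold change -0.85 ± 0.26, adjusted p = 0.0691, edgeR). At Mir30c-1 it was 133, 119 and 182 CPM in young and 112, 94.5 and 56.7 CPM in old (log2 fold change -0.73 ± 0.26, adjusted p = 0.139). Both copies had groups that did not overlap, and without old replicate 1 both passed the threshold (adjusted p of 0.000498 at Mir30c-2 and 0.00687 at Mir30c-1). Of the 9 member loci tested, 0 passed, where 4.32% of the 347 loci tested did, 0.865% being lower and 3.46% higher in old. Groups without overlap were found at 3 of the 9, the miR-30c-5p copies and miR-30a-3p, against 27.1% of all tested loci, with 13% lower in old.

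Apart from miR-30e-3p, whose level could not be read, the opposite strands stood at far lower levels than their own guides, except at Mir30a. miR-30a-3p stood at 148, 133 and 139 CPM in young and at 225, 154 and 147 CPM in old replicates 1, 2 and 3. Old replicate 1 was far above the rest, and old replicate 3 lay just below the highest young library in this fit. The means were 140.1 ± 7.51 and 175 ± 43.1 CPM (log2 fold change 0.32 ± 0.22, adjusted p = 0.439, edgeR). Without old replicate 1 the log2 fold change was 0.13 (adjusted p = 0.723).

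miR-30d-3p stood at 28.1, 19.4 and 21.6 CPM in young and at 36.9, 26.4 and 29.5 CPM in old, with means of 23.0 ± 4.52 and 30.9 ± 5.44 (log2 fold change 0.42 ± 0.32, adjusted p = 0.517). miR-30c-2-3p stood at 7.72, 7.26 and 12.1 CPM in young and at 14.0, 15.7 and 9.32 CPM in old, with means of 9.02 ± 2.65 and 13.0 ± 3.29 (log2 fold change 0.52 ± 0.46, adjusted p = 0.568), and the log2 fold change was 0.80 without young replicate 3. All 3 opposite strands that were tested had a positive log2 fold change, none past the threshold, and the groups of each overlapped.

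The other 3 opposite strands did not pass the filter on low counts. miR-30b-3p held 26 counts over all 6 libraries and miR-30c-1-3p held 9. miR-30e-3p was listed at 0 in every library. Its locus (chr4:120772618-120772639) overlaps by 19 bases that of Mir30f (chr4:120772621-120772642), on the other strand, and that locus was also listed at 0. With the command used for counting, a read over both features is assigned to neither, as at 104 of the 106 overlapping loci of the table that were listed at 0. The 0 therefore says nothing of the level of miR-30e-3p.

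The balance of the arms differed between hairpins. At Mir30b and Mir30d the 5p strand made up 98.9% ± 0.331 and 98.2% ± 0.452 of the counts of both arms in young, and 98.0% ± 1.25 and 97.6% ± 0.784 in old (exact permutation p = 0.5 and 0.3). Mir30e could not be compared, because the 0 of miR-30e-3p gives no level. At Mir30a the 3p strand made up a larger part than at Mir30b, Mir30d and the miR-30c hairpins. There the 5p share was 60.6, 63.0 and 66.2% in young and 49.3, 66.4 and 56.4% in old replicates 1, 2 and 3, at means of 63.2% ± 2.80 and 57.3% ± 8.56. The difference of -5.88 points was within the spread (exact permutation p = 0.4). It was -1.87 points without old replicate 1 and -10.4 points without old replicate 2.

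For miR-30c, with both hairpins summed, the 5p share was 97.3, 96.6 and 96.6% in young and 92.5, 91.5 and 91.4% in old replicates 1, 2 and 3. The groups did not overlap, at means of 96.8% ± 0.398 and 91.8% ± 0.611 (difference -5.04 points, exact permutation p = 0.1, the smallest possible, and 0.4 adjusted over the 4 hairpin groups with both arms counted). Taken by hairpin, the difference was -8.41 points at Mir30c-2 (exact permutation p = 0.1) and -1.60 points at Mir30c-1 (exact permutation p = 0.4). The opposite strand of Mir30c-1 held 9 counts in all. The 5p reads could not be placed at either hairpin, so neither value describes a single hairpin. The opposite strands behind the summed shares held 11, 14 and 20 counts in young and 18, 22 and 14 in old libraries, 99 in all. The single-library intervals (exact binomial, 95%) are accordingly wide. They ran from 95.2 to 98.6%, 94.4 to 98.1% and 94.8 to 97.9% in young replicates 1, 2 and 3 and from 88.4 to 95.5%, 87.4 to 94.6% and 85.9 to 95.2% in old replicates 1, 2 and 3. Those of young replicates 1 and 3 lay above that of old replicate 2, and that of young replicate 2 overlapped all the old ones. Intervals cover counting error only. How often the arm shares of hairpins outside the family separate the age groups was not computed.

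Expressed the other way, there were 2.81, 3.53 and 3.55 opposite-strand counts per 100 miR-30c-5p counts in young and 8.14, 9.32 and 9.46 in old (means 3.29 ± 0.424 and 8.98 ± 0.723). At Mir30a the same measure was 65.1, 58.8 and 51.2 in young and 103, 50.7 and 77.5 in old. The miR-30c values share their miR-30c-5p counts with the ratios between guides given above and are not an independent measurement of its level.

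**Figure D4:**
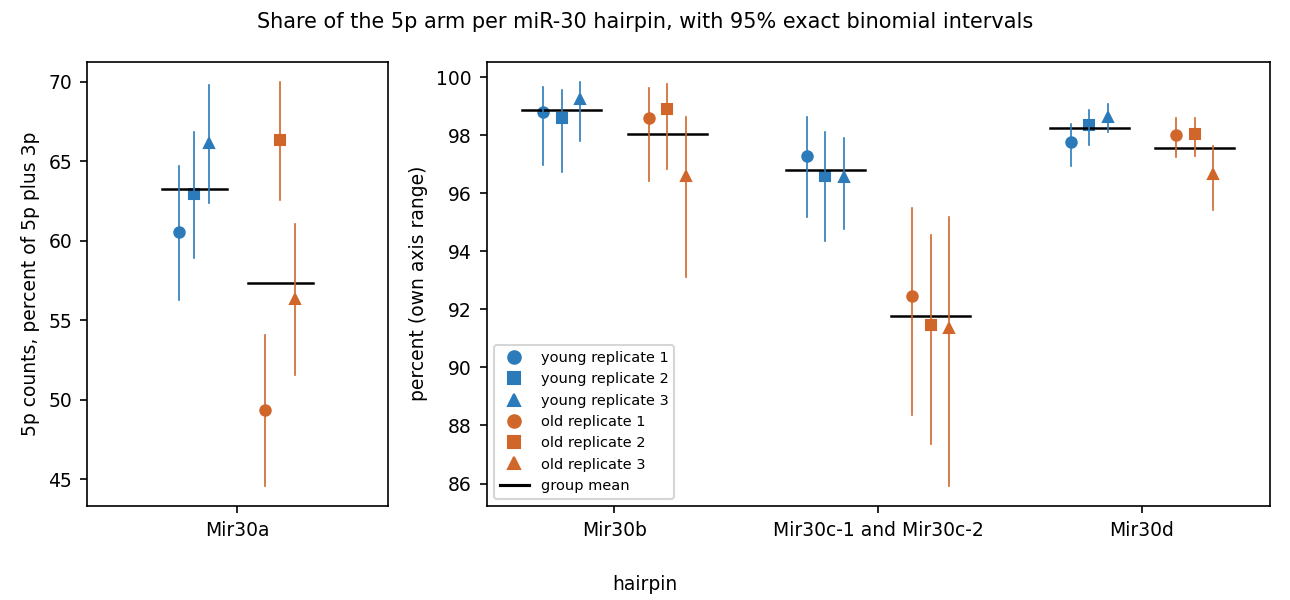
Share of the 5p strand in the counts of both arms, in percent, by hairpin and library, with bars for the mean of each group. Of the hairpins shown, which leave out Mir30e, Mir30a has the lowest shares (49.3 to 66.4%). For miR-30c the 3 old libraries (91.4 to 92.5%) lie below the 3 young ones (96.6 to 97.3%).

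Other miRNAs linked in earlier work to extracellular matrix genes were read beside miR-30, as a list of 10 of which 9 were tested. In edgeR's test 1 rose and 0 fell, where 3.47% of all tested miRNAs were higher and 1.58% lower in old, and the median log2 fold change was 0.06 against 0.05 over all tested miRNAs. The miRNA that rose was miR-133a-3p, a striated muscle miRNA, from 2262 ± 232 to 4853 ± 980 CPM (SD, n = 3 each, log2 fold change 1.10 ± 0.18, adjusted p = 0.000728). Of miR-133 and miR-30, which share a described target in heart, miR-133a-3p was thus higher in old vesicles while the miR-30 guides had log2 fold changes from -0.80 to 0.18, none past the threshold.

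The miR-29 family, which targets collagen genes, had values of 0.06 for miR-29a-3p, -0.06 for miR-29b-3p and 0.09 for miR-29c-3p (adjusted p from 0.875 to 0.893). miR-133b-3p stood at 0.37, miR-26a-5p at 0.25, miR-21a-5p at -0.16 and miR-18a-5p at -0.11. miR-19b-3p had the lowest log2 fold change of the list at -0.53 ± 0.20 (adjusted p = 0.135), and miR-19a-3p, with 26 counts, was not tested.

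Markers of the cells that could contribute vesicles were summed per library. Those of skeletal muscle came to 51154 to 60525 CPM in young and 49557 to 89546 CPM in old, with 3 of 5 tested members higher (3.47% of all tested miRNAs were higher in old and 1.58% lower). The higher ones were miR-1a-3p, miR-133a-3p and miR-499-5p. At least 1 locus of miR-1a-3p overlaps another locus, so its level may rest on part of its reads. Most of the sum was miR-206-3p, at 50151 ± 4358 CPM in young and 55998 ± 20224 CPM in old (adjusted p = 0.765, edgeR). Smooth muscle and fibroblast markers came to 31800 to 32599 and 40918 to 45304 CPM, with 1 of 5 higher, miR-143-3p (log2 fold change 0.69). In that list miR-199a-5p (-0.49) and miR-214-3p (-0.42) had the opposite sign, neither past the threshold. Leukocyte markers came to 1151 to 1332 and 891 to 1010 CPM, with 1 of 4 lower, miR-155-5p, which went from 715 ± 102 to 405 ± 23.6 CPM. The other 3 tested leukocyte markers had positive log2 fold changes, from 0.08 to 0.78, none past the threshold. Red blood cell markers came to 41299 to 43092 and 40867 to 48396 CPM, with 0 of 3 called, and liver markers to 240 to 282 and 273 to 430 CPM, with 0 of 2 called. miR-486a-5p, miR-142a-3p, miR-122-5p and both endothelial markers (miR-126a-3p and miR-126a-5p) were listed at 0, and each lies at an overlapping locus, where the 0 gives no level. The smooth muscle and fibroblast sum and the leukocyte sum did not overlap between the age groups, though the members of each list differed in sign. Groups without overlap were found for 26.2% of all single miRNAs tested, and miR-155-5p had the highest level in the leukocyte list. The part of these sums in the ratios of miR-30c-5p was not tested.

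The miRNAs whose levels were most like those of miR-30c-5p over the 6 libraries, by Pearson's r of log2(CPM + 1), were miR-140-3p (r = 0.97), miR-532-3p (r = 0.961) and miR-669c-5p (r = 0.959). miR-140-3p stood at 596 ± 32.4 CPM in young and 461 ± 40.5 CPM in old libraries (log2 fold change -0.37, adjusted p = 0.212, edgeR). miR-532-3p stood at 67.1 ± 19.9 and 34.7 ± 18.4 CPM (-0.98, adjusted p = 0.101), and miR-669c-5p at 9.05 ± 5.02 and 3.61 ± 4.05 CPM (-1.42, adjusted p = 0.267). These values share library, depth and scaling and were picked as the highest of all tested miRNAs, so they are a description with no test.

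The mean of miR-30a-5p, miR-30d-5p and miR-30e-5p had other companions. These were miR-1839-5p (r = 0.878, means of 181 and 196 CPM in young and old), miR-493-5p (r = 0.865, 12.9 and 9.70 CPM) and miR-671-5p (r = 0.859, 98.0 and 96.2 CPM). The lists of 3 for miR-30c-5p and for its relatives had no miRNA in common. Lists this short, out of 317 tested miRNAs, could differ through their shortness alone, so this does not set miR-30c-5p apart.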

How the data were processed

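The authors deposited whole-number read counts per mature miRNA locus, written by featureCounts 2.0.6 per the file headers, with no option for strand, overlapping features or multi-mapping reads. Reads of either strand were thus counted together. Alignment used BWA and mm10, per the submitters' processing notes. How reads were trimmed and with which BWA settings is not given in the sources used here. Loci took the name of the RefSeq mature entry at the same position, which matched 1734 loci, or of another copy of their identifier. Otherwise they were named from GENCODE M21 hairpins within 3 bases. Together this named 2098 of 2110, and host genes came from GENCODE M21. Members and lists were chosen with earlier results of these data known.

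Counts were tested with edgeR 4.0.16 (R 4.3.3; quasi-likelihood test, filterByExpr at count 10 and total 15, TMM scaling) for old against young, per locus and with identical copies summed per mature identifier; the text gives the summed values unless it names a locus. P-values were Benjamini-Hochberg adjusted over the 347 loci or 317 identifiers tested, at a threshold of 0.05. The SE of each log2 fold change was derived from the F statistic of edgeR's test and the coefficient fitted without a prior count. Ratios, arm shares and family shares were tested over libraries by two-sided exact permutation. Exact binomial intervals at 95% came from SciPy 1.17.1. Named miRNAs were every member, the 3 most similar to miR-30c-5p and to the mean of miR-30a, miR-30d and miR-30e, and the matrix-related list. Only edgeR's fit per locus was tried on simulated counts, drawn with a common dispersion for all loci. The fit on summed copies and the alternatives were not. Alternatives were DESeq2 1.42.0, its size factors (RLE) in edgeR, no scaling, no filter, miR-21a-5p left out, a replicate block, single miR-30c loci, and each library left out.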

Additional observations from a re-analysis of the deposited data

How the results depend on the processing

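The number of member loci called was 0 as reported and 1 by DESeq2, with miR-21a-5p left out and without the filter on low counts; leaving out each library gave 0 to 2. With copies summed it was 0, then 1 by DESeq2 and without the filter, and 0 to 1 over the left-out libraries. All loci called were 15, against 6 with the replicate block and 5 (without old replicate 2) to 45 (without old replicate 1). All mature miRNAs called were 16, against 7 without scaling and 4 to 49 without the same libraries. The log2 fold change of miR-30c-5p was -0.81 by DESeq2 and without the filter, both past the threshold (adjusted p = 0.0485 and 0.0192), and -1.01 to -0.58 over left-out libraries. Without scaling its adjusted p was 0.169, and with miR-21a-5p left out 0.0910. The cause was not tested.

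Signs near 0 changed. miR-30d-5p came to -0.0055 by DESeq2, -0.0003 with RLE scaling, -0.0142 without the filter and -0.0395 with the replicate block. Over left-out libraries the range was -0.25 to 0.24 for miR-30d-5p, -0.24 to 0.12 for miR-30a-5p, -0.38 to 0.0277 for miR-30b-5p and -0.0517 to 0.54 for miR-30e-5p. The family share of all counts ranged from -0.0479 to 0.0312 points, the share of miR-30a-5p in the family from -0.168 to 3.06 points and that of miR-30b-5p from -0.901 to 0.210 points. The log2 ratio of miR-30a-5p to miR-30c-5p, 0.13 over all libraries, was -0.25 in young libraries alone, 1.13 when the mean of the miR-30c loci replaced their sum, and -0.0097 to 0.24 over left-out libraries. That of miR-30c-5p to miR-30b-5p was 0.32, -1.002 and -0.11 to 0.0832 in the same settings.

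The labels do not say whether replicate numbers pair the libraries. The deviations of same-numbered libraries correlated at -0.0886, 0.0216 and -0.126, and young replicate 1 correlated best with old replicate 3 (0.167). No shared deviation by number was thus seen, though 3 libraries a group cannot settle whether they were paired. With the replicate block the adjusted p of miR-30c-5p was 0.0503, and 17 mature miRNAs were called. Limits come from 3 libraries a group, from the 99 opposite-strand counts of miR-30c and from the overlap that hides miR-30e-3p.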
